A study of Mus musculus with 3 samples.

Results

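Cholesterol and fatty acid synthesis genes were examined in CD11b+Gr1-F4/80+ macrophages, sorted by FACS from the skin of CD1 mice during the second telogen, the resting phase of the hair follicle cycle. The list holds 34 genes chosen by name, and all of them were found among the 19752 genes that the array names through a RefSeq transcript, with 47 probes in total. The mice were untreated, and the stages were early telogen (Te, labelled postnatal day 42), mid telogen (Tm, day 55), and late telogen (Tl, day 69). The text of the study gives a slightly later day for Te than this label. The RNA of littermates was pooled for each stage, amplified as a whole transcriptome from a very small amount, and hybridized to 1 array in 1 color. Each stage was thus measured once, so that no p-value can be given and every difference below is one between arrays, without a replicate check.

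Cells build cholesterol from acetyl-CoA through mevalonate and squalene, and build fatty acids from the same precursor through malonyl-CoA. The genes of both routes are switched on together by the SREBP transcription factors, which Scap escorts out of the endoplasmic reticulum when membrane sterol is low and which the Insig proteins hold back when it is high. In macrophages this machinery sets membrane composition and is known to respond to activation and to the uptake of cell debris, and in skin it is also highly active in keratinocytes and sebaceous glands, which make barrier and surface lipids.

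The arrays deposited for Tm and Tl are assigned in opposite ways by the scanner files and by the log2 table that the authors deposited. All 38 probes of the list that are in the log2 table followed the crossed assignment within 0.05 (log2), whereas 2 of them did so for the assignment by name. The samples' own scanner files were kept here, so "the Tm array" and "the Tl array" stand for the arrays deposited under these names, and no order in time is drawn from them. Levels are log2 signals relative to the 75th percentile of the array, and a probe was taken as detected where the scanner software called its signal well above background, which held for 71.4% of probes at Te, 59.6% on the Tm array, and 68.7% on the Tl array. Repeated spots of a detected probe had a median SD (log2) of 0.13, 0.11, and 0.12. This gives a difference from Te an SD of 0.17 on either later array, which covers the spot error and not the variation between mice, sorts, or amplifications.

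Many promoters of these genes hold a sequence feature that the choice of genes did not use. RefSeq promoter windows were at hand for 28 of the 34 genes, and not for Sqle, Fdps, Fdft1, Scd1, Scd2, and Fads1. Of those without a window, Sqle, Scd1, Scd2, and Fads1 were at least 2-fold higher on both later arrays. A CCAAT box (CCAAT on either strand), the site of the factor NF-Y, which is known to act beside SREBPs, was found in the 250 bases before a transcription start in 23 of 28 genes (82.1%), compared to 37.5% of 27025 genes. These are all genes with a window, a set not limited to the genes named on the array. A gene with several windows was counted as holding a motif if any window held it. The 28 genes have 37 windows, and the number of windows per gene was not matched between them and all genes. The core of the classical sterol regulatory element (CACCCCA on either strand) was found in 4 of 28 genes (Acat2, Hmgcs1, Srebf2, and Acsl1) and in 7.64% of all genes, and the E-box CACGTG in 6 of 28 and in 6.86%. Of the 11 genes with a promoter window that were at least 2-fold higher on both later arrays, 8 held a CCAAT box compared to 15 of the 17 others. The 170 bases before the start are shown for 3 genes that were at least 2-fold higher on a later array in the cholesterol pathway (Hmgcs1, Idi1, and Msmo1), for the regulator Srebf2, and for Nsdhl and Mvd, which were not higher by 2-fold on either. Capitals mark the CCAAT box (ATTGG on the other strand) and the CACCCCA core. A match is a match of letters and not a bound site.
Hmgcs1, GRCm38.p6, chr13:119690181-119690350, + strand: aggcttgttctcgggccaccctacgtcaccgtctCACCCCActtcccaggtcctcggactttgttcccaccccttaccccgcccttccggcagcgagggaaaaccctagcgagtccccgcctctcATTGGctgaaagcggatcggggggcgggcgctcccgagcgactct
Idi1, GRCm38.p6, chr13:8885436-8885605, + strand: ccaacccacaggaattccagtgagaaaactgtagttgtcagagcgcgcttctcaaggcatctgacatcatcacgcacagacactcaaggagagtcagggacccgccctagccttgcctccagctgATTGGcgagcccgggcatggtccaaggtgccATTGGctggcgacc
Msmo1, GRCm38.p6, chr8:64733579-64733748, - strand: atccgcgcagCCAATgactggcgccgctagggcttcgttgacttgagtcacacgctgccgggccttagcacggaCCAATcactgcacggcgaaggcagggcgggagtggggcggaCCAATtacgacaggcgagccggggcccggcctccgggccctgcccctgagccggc
Srebf2, GRCm38.p6, chr15:82147099-82147268, + strand: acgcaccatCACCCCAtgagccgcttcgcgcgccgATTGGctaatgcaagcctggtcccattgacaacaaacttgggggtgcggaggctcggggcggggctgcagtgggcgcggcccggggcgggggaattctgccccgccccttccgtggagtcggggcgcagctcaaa
Nsdhl, GRCm38.p6, chrX:72918351-72918520, + strand: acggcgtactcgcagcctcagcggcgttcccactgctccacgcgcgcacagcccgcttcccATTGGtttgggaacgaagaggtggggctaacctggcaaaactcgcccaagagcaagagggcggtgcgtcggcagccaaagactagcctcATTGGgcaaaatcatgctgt
Mvd, GRCm38.p6, chr8:122443423-122443592, - strand: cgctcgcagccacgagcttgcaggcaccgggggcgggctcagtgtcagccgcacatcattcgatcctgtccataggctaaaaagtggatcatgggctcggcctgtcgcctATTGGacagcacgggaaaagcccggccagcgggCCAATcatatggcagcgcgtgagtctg
Hmgcs1 and Srebf2 each hold 1 CACCCCA core, 136 and 161 bases before the start, and 1 CCAAT box. Msmo1 holds 3 CCAAT boxes in this stretch, and Idi1, Nsdhl, and Mvd hold 2 each.

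Most of these genes had a higher signal on both later arrays than at Te. On the Tm array, 23 of the 32 genes with a value were at least 2-fold higher and 0 were at least 2-fold lower, compared to 29.1% of all genes higher and 16.9% lower. On the Tl array, 17 of 33 were at least 2-fold higher and 1 was at least 2-fold lower, compared to 22.2% and 20.7% of all genes. The median log2 change of the list was 1.44 on the Tm array and 1.02 on the Tl array, whereas the median over all genes with a value was 0.22 (15843 genes) and 0.15 (16165 genes). Counted relative to these medians of all genes, 19 genes of the list were at least 2-fold higher on the Tm array and 14 on the Tl array. Both later arrays shared 15 of the genes that were at least 2-fold higher, which is 65.2% of those on the Tm array and 88.2% of those on the Tl array. The same overlap over all genes was not computed, so it is not read as a trait of the list. Keratinocyte markers, given further on, were at least 2-fold higher on the same arrays for 13 and 12 of 15 genes, and their part in these counts was not tested. The 2 comparisons share the Te array, and their values are therefore given side by side and not as support for each other. At the 10-fold change that the methods of the study use, 0 genes of the list differed from Te, compared to 1.44% (Tm array) and 1.13% (Tl array) of all genes in either direction.

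**Figure D1:**
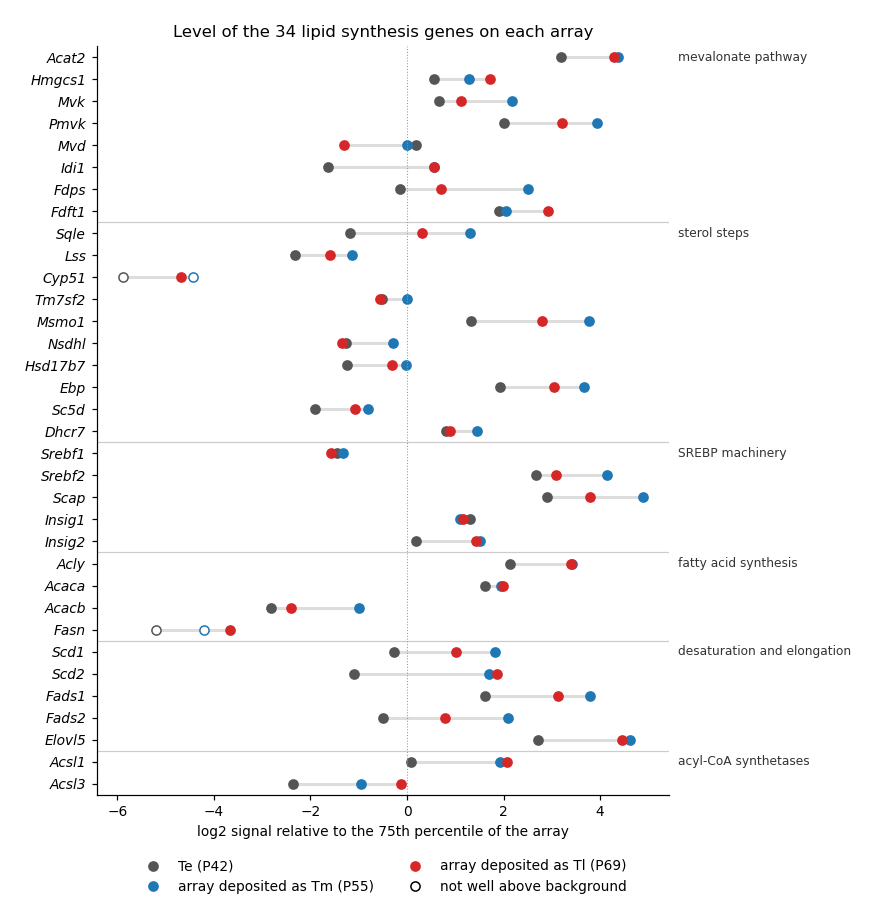
Level of each gene (log2 signal relative to the 75th percentile of the array) on the Te array and the later arrays, with genes grouped by role and open circles for signals not well above background. For most genes the Te point lies to the left of both later points, and 32 of the 34 genes were detected on all 3 arrays.

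The mevalonate pathway runs from acetyl-CoA to squalene, and 5 of its 8 genes were at least 2-fold higher on each later array. For all genes this share was 29.1% on the Tm array and 22.2% on the Tl array. Acat2, which joins acetyl-CoA units in the first step, had a log2 level of 3.20 at Te, 4.36 on the Tm array, and 4.29 on the Tl array, a log2 change of 1.16 and 1.09. Hmgcs1, which makes HMG-CoA, was at 0.55, 1.28, and 1.72, and its change of 1.17 passed 2-fold on the Tl array, compared to 0.73 on the other. Both later arrays were thus above Te for these entry enzymes.

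Mvk, the kinase that phosphorylates mevalonate, was at 0.66 at Te, 2.16 on the Tm array, and 1.13 on the Tl array (changes of 1.51 and 0.47), and its other probe gave 1.05 and 0.08. Pmvk, which adds the next phosphate, was at 2.02, 3.94, and 3.22 (1.92 and 1.20), and its other probe gave 1.78 and 1.40. Mvd, which decarboxylates the product to the first isoprenoid, went the other way, with levels of 0.19, -0.01, and -1.30. Its signal was 2.80-fold lower on the Tl array than at Te (log2 change -1.48) and differed by -0.19 on the Tm array, close to the spot error. By the probe that stands for each gene, its brightest, Mvd was the only gene of the list at least 2-fold lower on a later array than at Te, and it is covered by 1 probe. The dimmer probe of Acacb, described below, was also at least 2-fold lower on the Tl array.

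Idi1, which isomerizes that isoprenoid, was higher to nearly the same extent on both later arrays, with levels of -1.64, 0.57, and 0.55 and changes of 2.21 and 2.19, that is, 4.61-fold and 4.57-fold. Fdps, which makes farnesyl diphosphate, was at -0.15, 2.50, and 0.70. Its change of 2.65 on the Tm array (6.27-fold) was larger than that of 0.85 on the Tl array, and the later arrays differed from each other by 3.48-fold. Fdft1, the squalene synthase, was at 1.90, 2.04, and 2.93, with changes of 0.14 and 1.02, and its other probe gave 0.45 and 0.40, so that its 2-fold difference on the Tl array rested on the brighter probe.

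In the sterol steps, which turn squalene into cholesterol, all 9 measured genes had a change above 0 on the Tm array. Among all genes, 8836 of 15843 were above 0 there. Of these, 6 were at least 2-fold higher there, compared to 29.1% of all genes. Only 3 of the 9 sterol genes (33.3%) passed 2-fold on the Tl array, compared to 22.2% of all genes. A change just below 0 was found there for 2 of them, and a change below 0 for 7315 of 16165 genes. Sqle, the squalene epoxidase and a rate-setting enzyme of the pathway, was at -1.18 at Te, 1.30 on the Tm array, and 0.31 on the Tl array (changes of 2.48 and 1.49, or 5.58-fold and 2.81-fold). Msmo1, which removes methyl groups from the sterol ring, was at 1.32, 3.77, and 2.79 (2.44 and 1.46). Ebp, a sterol isomerase, was at 1.92, 3.66, and 3.04 (1.74 and 1.13). For these genes the Te array was the lowest and the Tm array the highest.

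Lss, which closes the sterol rings, was at -2.32, -1.14, and -1.60 (changes of 1.18 and 0.72). Hsd17b7, a sterol ketone reductase, was at -1.23, -0.03, and -0.30 (1.21 and 0.93), and its other probe gave 1.35 and 0.89. Sc5d, a desaturase near the end of the pathway, was at -1.91, -0.81, and -1.08 (1.10 and 0.83). These genes passed 2-fold on the Tm array and were 1.65-fold to 1.91-fold higher on the other.

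The other sterol genes stayed within 2-fold of Te. Nsdhl, which acts with Msmo1, had changes of 0.98 and -0.08, Dhcr7, which catalyzes a last step to cholesterol, of 0.64 and 0.09, and Tm7sf2, a sterol reductase, of 0.51 and -0.06. For these 3 genes the Tl values lay within the spot error, although the other probe of Nsdhl gave -0.56 there and that of Tm7sf2 gave 0.35. Cyp51, the lanosterol demethylase, was detected on the Tl array only, at a level below the lowest detected signal of the Te array relative to its percentile, so no change is given for it.

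The SREBP machinery divided into genes that were higher and genes that hardly differed. Of its 5 genes, 3 were at least 2-fold higher on the Tm array, compared to 29.1% of all genes. On the Tl array 1 was, compared to 22.2% of all genes. Srebf2, which encodes the SREBP that drives mainly cholesterol genes, was at 2.67 at Te, 4.14 on the Tm array, and 3.08 on the Tl array (changes of 1.48 and 0.42), and its other probe gave 1.63 and 0.36. Scap, the escort protein, was at 2.90, 4.88, and 3.79 (1.99 and 0.89). Insig2 was at 0.19, 1.51, and 1.43 (1.32 and 1.24), and its other probe, designed on another transcript, gave 2.55 and 2.58.

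Srebf1, whose SREBP drives mainly fatty acid genes, was at -1.45, -1.34, and -1.58, with changes of 0.12 and -0.13. Insig1, which is itself a well-known SREBP target, was at 1.30, 1.10, and 1.16, with changes of -0.19 and -0.13. These differences were close to or below the SD of 0.17 that the spot error gives, and their sign depended on the scaling. Srebf1 and Insig1 are covered by 1 probe each.

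**Figure D2:**
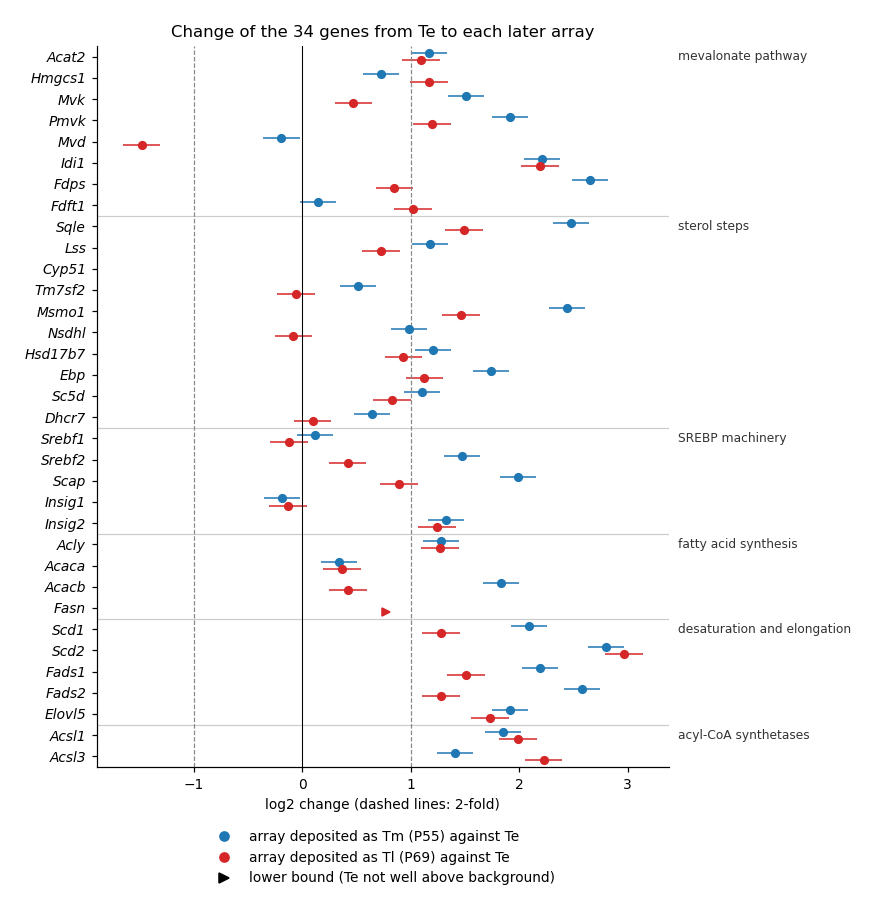
Log2 change of each gene from Te to the Tm array and to the Tl array, with bars of 1 SD from repeated spots, dashed lines at 2-fold, and a triangle for the lower bound of Fasn. All genes of desaturation and elongation lie right of the 2-fold line on both arrays, whereas Srebf1 and Insig1 lie near 0 and Mvd lies left of the 2-fold line on the Tl array (-1.48).

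Among the genes that make the fatty acid chain, Acly, which supplies cytosolic acetyl-CoA, was at 2.14 at Te and at 3.41 on both later arrays (changes of 1.28 and 1.27). Its other probe gave 0.16 and -0.36, so the probes of Acly disagree. Acaca, the acetyl-CoA carboxylase that commits carbon to fatty acids, was at 1.61, 1.95, and 1.98 (0.34 and 0.37), and over its 3 probes the change ranged from 0.34 to 1.18 on the Tm array and from 0.37 to 0.87 on the Tl array. Acacb, the carboxylase at mitochondria that restrains fatty acid oxidation, was at -2.82, -0.99, and -2.40 (1.83 and 0.42), but its other probe gave 0.24 and -1.44.

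Fasn, the fatty acid synthase, was not detected at Te or on the Tm array. Its level was -3.67 on the Tl array, at least 1.70-fold higher than at Te (log2 0.77). Of the genes of fatty acid synthesis, 2 of 3 with a value were at least 2-fold higher on the Tm array and 1 of 4 on the Tl array, compared to 29.1% and 22.2% of all genes. The 2 genes on the Tm array were Acly and Acacb, which did not pass 2-fold by their other probe.

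All 5 genes of desaturation and elongation, which introduce double bonds and lengthen fatty acids, were at least 2-fold higher on both later arrays. Among all genes, 29.1% passed this on the Tm array and 22.2% on the Tl array. The median log2 change of the 5 genes was 2.19 on the Tm array and 1.51 on the Tl array, compared to 1.44 and 1.02 over the list as a whole. Scd2, a stearoyl-CoA desaturase, had the largest change of the list on both arrays. Its level was -1.10 at Te, 1.70 on the Tm array, and 1.86 on the Tl array, which is 6.97-fold and 7.81-fold higher (log2 2.80 and 2.97). Scd1, the other desaturase of this kind in the list, was at -0.27, 1.82, and 1.01 (2.09 and 1.28). Cross-hybridization between Scd1 and Scd2, which are related in sequence, was not analysed here.

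Fads1 and Fads2, the desaturases that make polyunsaturated fatty acids such as arachidonic acid, lie next to each other on chromosome 19 (GRCm38.p6). Fads1 was at 1.61, 3.80, and 3.12 (changes of 2.19 and 1.51), and Fads2 was at -0.49, 2.09, and 0.79 (2.58 and 1.28). Elovl5, the elongase that acts between them, was at 2.72, 4.63, and 4.44 (1.91 and 1.73). Scd1 and Scd2 lie on the same chromosome with 1 protein-coding gene between them.

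The acyl-CoA synthetases, which activate fatty acids for use in lipids or oxidation, were higher as well. Acsl1 was at 0.08 at Te, 1.93 on the Tm array, and 2.07 on the Tl array (changes of 1.85 and 1.99), and its other probe gave 0.84 and 1.25. Acsl3, which is linked to lipid droplets, was at -2.35, -0.95, and -0.13 (1.41 and 2.22). Acsl3 was 1 of the 7 genes of the list with a larger change on the Tl array than on the Tm array.

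Of the 34 genes, 12 were measured by more than 1 probe, and these probes give a further view of the measurement error. On the Tm array the probes of all 12 genes had changes of the same sign, compared to 64.4% of 3286 such genes on the array. On the Tl array this held for 9 of 12, with Acly, Acacb, and Tm7sf2 as the exceptions, compared to 60.4% of 3588. Agreement in sign also depends on the size of the change. The median change was 1.44 and 1.02 for the list, compared to 0.22 and 0.15 for all genes. The comparison of signs thus does not measure error alone. The median range between probes of a gene was 0.43 and 0.49 (log2) for the list and 0.83 and 0.79 for all such genes, all of which exceed the spot error.

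**Figure D3:**
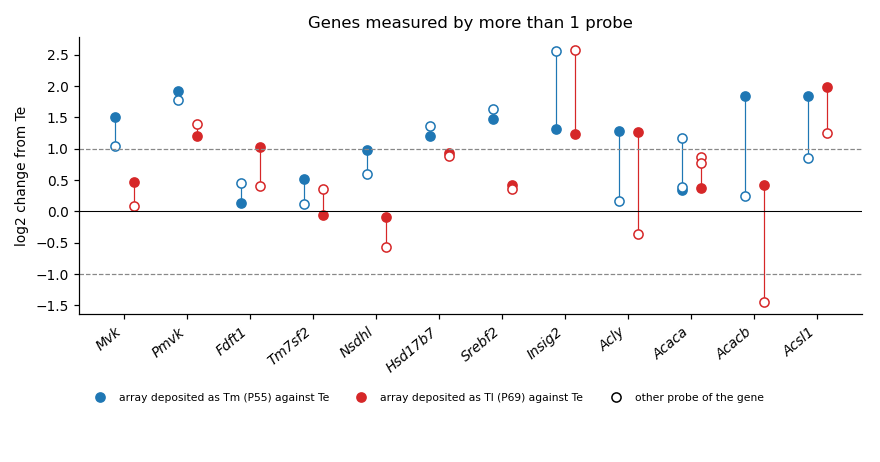
Log2 change from Te for every probe of the 12 genes measured by more than 1 probe, with filled circles for the probe that represents the gene and open circles for the others. The probes of Hsd17b7, Pmvk, and Srebf2 nearly coincide, while those of Acly and Acacb lie on both sides of 0 on the Tl array.

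Between the later arrays, 8 genes of the list were at least 2-fold lower on the Tl array than on the Tm array and 0 were at least 2-fold higher, compared to 11.3% and 7.85% of 14847 genes. A 10-fold difference between them was found for 0 genes of the list and for 0.182% of all genes. The 8 genes were Fdps, Acacb, Fads2, Mvd, Scap, Nsdhl, Srebf2, and Mvk, with log2 differences of -1.80, -1.42, -1.30, -1.29, -1.10, -1.06, -1.06, and -1.04. The median difference of the list was -0.46, compared to -0.15 over all genes. Relative to this median of all genes, 4 genes were at least 2-fold lower and 1 was at least 2-fold higher. If the arrays are exchanged, as in the log2 table of the authors, these differences change sign.

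Other genes of lipid synthesis were taken from a separate list of 27 genes, all of which were detected on all 3 arrays. On the Tm array, 13 were at least 2-fold higher (48.1%) and 1 was at least 2-fold lower, compared to 29.1% and 16.9% of all genes. On the Tl array, 7 were higher (25.9%) and 1 was lower, compared to 22.2% and 20.7% of all genes. The share of higher genes on the Tl array was thus close to that of all genes. Their median log2 change was 0.99 and 0.67, below that of the 34 genes and above that of all genes. The largest changes on the Tl array were those of Soat1, which esterifies cholesterol for storage (1.66 on the Tm array and 1.96 on the Tl array), Me1, which supplies NADPH for fatty acid synthesis (2.03 and 1.83), and Hacd3, a dehydratase of fatty acid elongation (1.88 and 1.74).

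**Figure D4:**
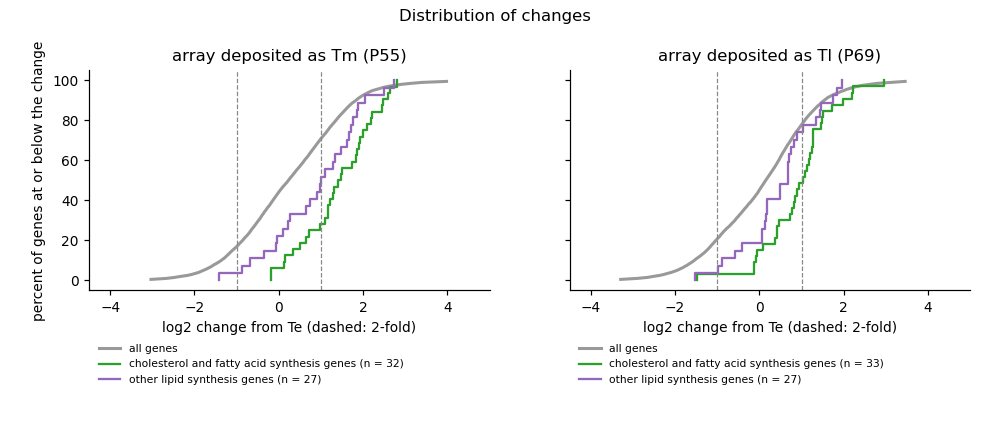
Cumulative distribution of log2 changes from Te for the 34 genes, the 27 other lipid synthesis genes, and all genes, with dashed lines at 2-fold. The curve of the 34 genes lies to the right of that of all genes over most of its range on both arrays, with medians of 1.44 against 0.22 (deposited as Tm) and 1.02 against 0.15 (deposited as Tl).

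Markers of the cell types that the sort could hold were examined beside these genes. Their counts are to be read beside the shares over all genes. These shares were 29.1% higher and 16.9% lower on the Tm array, and 22.2% and 20.7% on the Tl array. In the sorted cells all 15 macrophage genes found on the array were detected on every array, and 0 of them were at least 2-fold higher on either later array, while 2 were at least 2-fold lower on the Tm array and 3 on the Tl array. The largest changes on the Tl array were those of Cd163 (-1.19 and -1.55), C1qb (-1.07 and -1.18), and Itgam (-0.23 and -1.10). Adgre1, which encodes F4/80, was at 4.83, 5.51, and 5.15, and Itgam, which encodes CD11b, was at 8.95, 8.73, and 7.85. The summed macrophage signal, as a multiple of the 75th percentile, was 1063 at Te, 991 on the Tm array, and 651 on the Tl array. Without Itgam, the brightest gene, it was 568, 568, and 420.

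Of 15 keratinocyte genes, 13 were at least 2-fold higher on the Tm array and 12 on the Tl array, and 14 were detected at Te. Their summed signal was 284, 427, and 284, of which the Trp63 probe was the largest part, and 22.3, 163, and 121 without it. The largest changes on the Tl array were those of Lor (4.96 and 6.09), Cdh1 (4.52 and 4.56), and Perp (3.64 and 3.46). The list of Langerhans and dendritic cell genes had a summed signal of 47.5, 164, and 99.3. Much of this came from Cd207, without which the sum was 33.8, 55.7, and 39.5. Of the 6 genes of this list on the array, 2 were at least 2-fold lower on the Tl array. At least 2-fold higher on both later arrays were 3 genes of this list, namely Epcam (2.80 and 2.71), Itgax (2.73 and 2.17), and Cd207, which encodes langerin (2.99 and 2.13).

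Of the 10 sebocyte genes with a value, which include Krt79 of the keratinocyte list, 5 and 4 were at least 2-fold higher. The summed signal of the sebocyte list was 10.2, 49.6, and 25.8, and 4.64, 31.4, and 17.2 without Krt79, the brightest gene. Its largest changes on the Tl array measured on both arrays were those of Dgat2 (4.08 and 3.03), Fa2h (4.38 and 2.45), and Mgst1 (0.85 and 1.01). Awat2, a wax synthase of sebocytes, was not detected on any array, and Awat1 had changes of -0.56 and -0.70. Elovl3 was not detected at Te and was higher by at least 2.89 on the Tm array and 2.27 on the Tl array. Cidea had changes of 2.28 and 0.56. Of the 10 sebocyte genes with a value, 8 had a change above 0 on each later array and 2 below. Among all genes, 8836 of 15843 (Tm array) and 8850 of 16165 (Tl array) were above 0. Of 10 adipocyte genes, Lep was not detected on any array and Adipoq was detected at Te only. Their summed signal was 43.0, 84.5, and 51.6, and 11.3, 44.8, and 21.9 without Fabp4, the brightest gene. Of the adipocyte genes, 4 of 8 were at least 2-fold higher on the Tm array, compared to 1 higher and 2 lower of 9 on the Tl array. The largest measured changes of adipocyte genes on the Tl array were those of Car3 (0.34 and -1.36), Lipe (2.06 and 1.11), and Cidec (-0.42 and -0.88).

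Fibroblast genes had median changes of -0.82 and 0.64. At least 2-fold higher or lower were 3 and 3 of 9 on the Tm array and 4 and 3 of 10 on the Tl array. Their summed signal was 98.2, 66.0, and 72.7, and 63.9, 50.5, and 56.1 without Col3a1, the brightest gene. Their largest measured changes on the Tl array were those of Postn (1.02 and 2.78), Fn1 (1.94 and 2.16), and Pdgfrb (0.32 and 1.54). Endothelial genes had median changes of -0.95 and 0.02, with 3 lower of 7 on the Tm array and 1 higher and 1 lower on the Tl array. Their summed signal was 33.6, 25.1, and 31.7, and 20.5, 12.0, and 18.5 without Egfl7, the brightest gene. Their largest changes on the Tl array were those of Tek (-1.44 and -1.09), Cdh5 (-0.28 and 1.02), and Pecam1 (-0.95 and -0.19). T cell genes had median changes of 0.54 and 0.41 and a summed signal of 6.09, 10.5, and 7.16, with 1 and 2 of 6 higher. The part of keratinocyte, Langerhans cell, and sebocyte RNA in the differences of the lipid synthesis genes was not tested. In sorted pools of this kind, a different share of a cell type and a different amount of RNA per cell cannot be told apart.

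**Figure D5:**
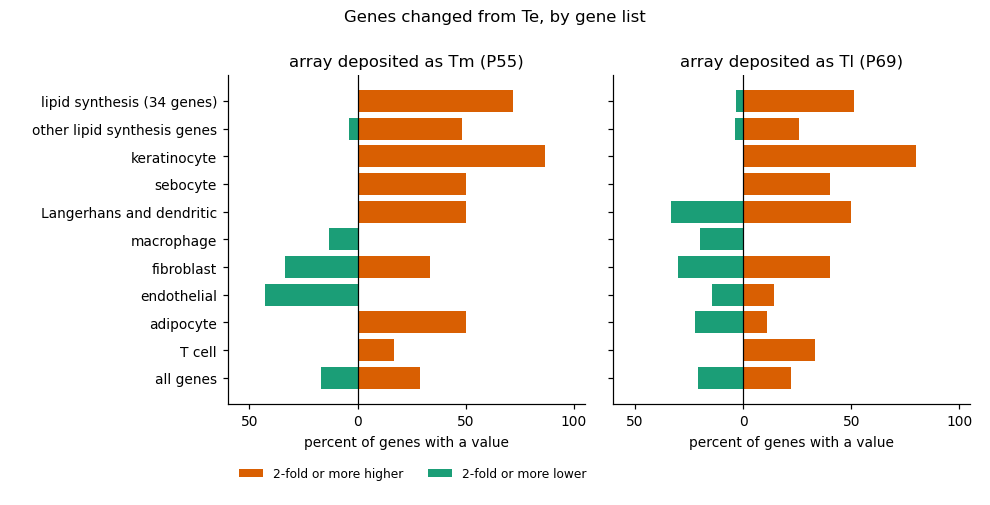
Percent of genes with a value that were at least 2-fold higher (right of 0) or lower (left of 0) than at Te, for the 34 lipid synthesis genes, the other lists, and all genes. The 34 genes (71.9% and 51.5% higher) lie between the keratinocyte genes (86.7% and 80.0%) and all genes (29.1% and 22.2%), and the macrophage genes have no bar to the right.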

How the data were processed

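Gene expression was measured on Agilent mouse arrays (1 color, Cy3) in sorted skin macrophages, with 1 array for each of 3 stages, all on 1 slide. The authors quantified the images with Feature Extraction (version 10.7.3.1) and deposited for each spot a linear intensity from which the software had removed background, without normalization across arrays. A table of log2 values was deposited as well, holding 36409 probes, each centered on its median over the arrays. How this table was scaled between arrays is not stated in the sources used here. With the later arrays crossed, its changes from Te nearly equal those given here. Acat2, for example, changed by 1.09 in the Tm values of the table and by 1.09 on the Tl array. It lists probes of 29 of the 34 genes.

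Here control spots and outlier spots (162 at Te, 274 on the Tm array, and 281 on the Tl array) were left out and no spot was saturated. Spots of a probe were averaged, and log2 of the deposited intensity was taken minus the 75th percentile of the array over 55681 probes. The flags that the software sets for each spot decided detection, at a share of 0.5 of the spots. Each probe of the list has 1 spot. RefSeq transcripts gave a current symbol (GRCm38.p6) to 26056 probes, and the brightest probe over the arrays stood for its gene. Levels were not compared between genes, except in the summed signals of the cell type lists. Such a sum gives more weight to genes with brighter probes. Where 1 of 2 arrays was not detected, the dim side was set to the lowest detected signal of its array (or to its measured signal where that was larger), which makes the change a bound. No p-values are given, and the number of arrays limits the precision. The computation was tested on simulated data. Python 3.11.15, pandas 2.3.3, and limma 3.58.1 (normexp, offset 50) were used.

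The genes, the lists, the motifs, and the alternatives were chosen with earlier results of these data known. Values were written out for genes past 2-fold on a later array and for regulators of the pathway, and otherwise given in brief. From the other lists, the 3 genes with the largest measured change on the Tl array were named, with Adgre1 and Itgam as markers of the sort. The brightest gene of a list was named where the sum without it is given. Awat1, Awat2, Elovl3, Cidea, Lep, Adipoq, Trp63, Krt79, and the genes whose promoters are shown were chosen after their values were seen.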

Additional observations from a re-analysis of the deposited data

How the results depend on the processing

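The direction of the list held under every alternative tried, with more genes above 0 than below on both later arrays, and no gene that was 2-fold higher than Te fell below it. In the main setting 30 genes of the list were above 0 and 2 below on the Tm array, and 28 and 5 on the Tl array. All genes also had more above 0 than below there, with 8836 against 7007 and 8850 against 7315. The size depended on the scaling, and for the log2 table of the authors on its crossed arrays and its 29 genes. The number of genes at least 2-fold higher ranged from 17 to 27 on the Tm array and from 12 to 32 on the Tl array over all alternatives with a 2-fold threshold, and the highest count on the Tl array was that without scaling, where the median change of all genes was itself 1.32. The median change of the list (array deposited as Tm, then Tl) was 1.07 and 0.82 with the 75th percentile over detected probes, 2.00 and 1.50 with the median as scale, 1.70 and 2.14 without scaling, 1.20 and 1.51 in the log2 table of the authors, 1.02 and 1.44 when the later arrays were exchanged, 1.26 with normexp on the Tm array, and 1.22 on the Tm array relative to all genes, a setting chosen after seeing the data. The count of genes at least 2-fold lower was 1 on the Tm array in the log2 table and after the exchange, and 0 on the Tl array with the median as scale, without scaling, in the log2 table, and after the exchange. Between the later arrays, 5 genes passed 2-fold with the 75th percentile over detected probes, 4 with normexp, and 5 relative to all genes. At 10-fold all counts were 0. Among the values of single genes under the alternatives, 368 stayed within the spot error of the reported value, and 398 moved further. The sign changed for 36 of these 766 values, in 9 genes (Fdft1, Mvd, Tm7sf2, Nsdhl, Dhcr7, Srebf1, Insig1, Acaca, and Acacb), and for 0 values that were reported as 2-fold or more. Against the median of all genes under the same setting, the list was higher by 0.92 to 1.23 on the Tm array and by 0.68 to 1.18 on the Tl array. These ranges leave out the log2 table and the exchange, which cross the later arrays. Those gave 1.16 and 0.87 under the name Tm and 1.28 and 1.22 under the name Tl. No paired analysis was possible because each stage had 1 array, and for the same reason no array could be left out. Signal over background limits Cyp51 and Fasn. The 75th percentile was 16.5 to 32.3 times the lowest detected signal.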
